A study of Oryza sativa Indica Group with 9 samples.

Results

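The levels of miRNAs in leaves of heated rice seedlings (12 h at 45 °C) were set against those in leaves taken at 0 h, for each mature sequence in the authors' miRNA list. The members were all sequences with at least 10 reads in at least 2 of the 6 small RNA libraries of the study, which 459 of 483 distinct sequences met. The same reads were also summed by the family number in the name, which gave 132 families, of which 124 met the same minimum. The filter was close for some: 16 sequences had exactly 10 reads in their second-highest library and passed, and 9 had 9 reads there and did not.

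Both groups were leaves of HT54, a breeding line of Oryza sativa Indica that the labels describe as heat-tolerant, at the stage of 3 leaves, grown with 13 h of light and 11 h of dark per day. Each group held 2 libraries, numbered 1 and 3, from samples that the labels call independent, and a further library of each time was left out by the submitters as unsuitable. The 2 libraries of leaves heated for 24 h entered the same fit but not the comparison. No unheated leaves of 12 h were sampled, so heat and elapsed time cannot be told apart. In bulk leaf RNA, fewer cells that hold a miRNA and less of it in each cell cannot be told apart.

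Plant miRNAs are short RNAs cut from the arms of a folded precursor (5p and 3p) by a Dicer-like enzyme. One strand, the guide, is kept in an Argonaute protein and directs the cleavage of transcripts that match it closely, while the other strand, the passenger, is mostly degraded. Many conserved families of leaves act on transcription factor genes for growth, phase change and hormone response, and a further group acts on genes for copper proteins. Rice also makes 24 nt miRNA-like RNAs, a class known for directing DNA methylation rather than cleavage.

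The following sequences are those the results turn on, read 5′ to 3′ in DNA letters as the authors list them, with the seed (bases 2 to 8) in capitals. The first 15 are the sequences that passed the test at 12 h, and the others are the abundant or conserved members to which they are compared. Added or exchanged bases in a name (R+1, 1ss20AT) are the authors' marks for differences from the database entry.
osa-miR396d: tCCACAGGctttcttgaacgg
ghr-miR393_L+3R-1: aTCTCCAAagggatcgcattgatc
osa-miR5073_R+1_1ss20AT: gTTTGGTGaatcggaaactttttt
mtr-MIR2606c-p3_2ss8TG18GA: aAATCATGatgaatttaa
osa-MIR1850-p5_1ss18CT: cCAAATTCccaactttttatc
osa-MIR1850-p3_1ss8TG: gAAGTTGGgtgtgaactaaac
osa-miR1850.1: tGGAAAGTtgggagattgggg
osa-miR528-3p: cCTGTGCTtgcctcttccatt
osa-miR166d-5p: gGAATGTTgtctggctcgagg
osa-MIR169a-p3: cTACATCTtggcccctgctcc
gma-miR6300: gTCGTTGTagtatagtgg
gma-miR6300_R+1: gTCGTTGTagtatagtggt
gma-MIR6300-p3_1ss11AG: gTATAGTGgtgagtattcccgcc
gma-MIR6300-p3_1ss8AG: tAGTGGTGagtattcccgcc
gma-MIR5368-p3_1ss4GA: gCCAAGGGacagtctcagg
osa-miR396e-5p: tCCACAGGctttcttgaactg
osa-miR396c-5p: tTCCACAGctttcttgaactt
osa-miR393a: tCCAAAGGgatcgcattgatc
osa-miR172a: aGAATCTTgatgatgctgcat
osa-miR528-5p: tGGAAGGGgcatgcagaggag
osa-miR408-3p: cTGCACTGcctcttccctggc
osa-MIR397b-p5: tTGAGTGCagcgttgatgaacc
osa-miR168a-5p: tCGCTTGGtgcagatcgggac
osa-miR168a-3p: gATCCCGCcttgcaccaagtgaat
osa-miR160a-5p: tGCCTGGCtccctgtatgcca
ppt-miR894_R+1: cGTTTCACgtcgggttcacca

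The seeds group these sequences. osa-miR396d and osa-miR396e-5p share CCACAGG and differ at 1 base, T20G (counting from the 5′ end, with the base of osa-miR396e-5p written first), whereas the seed of osa-miR396c-5p is TCCACAG. ghr-miR393_L+3R-1 holds all 21 bases of osa-miR393a behind 3 more at its 5′ end, so its seed differs. Among the tested sequences 14 share the seed TCGTTGT of gma-miR6300. gma-miR6300_R+7, the longest of these, overlaps the start of gma-MIR6300-p3_1ss11AG by 16 bases. In the authors' list a precursor of osa-miR396e-5p lies at chr2:35636546-35636721 on the minus strand, that of osa-miR528-5p and osa-miR528-3p at chr3:1667328-1667415 on the plus strand, that of osa-miR166d-5p at chr2:26130059-26130183 on the plus strand and that of osa-miR5073_R+1_1ss20AT at chr8:19020495-19020601 on the plus strand. No source used here names the genome build, and no gene annotation was set against these positions.

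The depth of the libraries was uneven. The listed miRNAs held 147038 and 10314 reads in the 12 h libraries (replicates 1 and 3) and 33623 and 102513 reads in the 0 h libraries. These are sums over the list, not library totals. At least 10 reads were found for 426 and 129 of the 459 sequences in the 12 h libraries, and for 234 and 378 in the 0 h libraries, and 12 h replicate 3 had no read for 61. A count of 3 reads corresponded to 20.3 and 195 CPM (counts relative to the listed reads of a library, after TMM scaling) in the 12 h libraries and to 78.4 and 28.7 CPM in the 0 h libraries. Across sequences the log2 levels of the 12 h libraries correlated at 0.803 and those of the 0 h libraries at 0.917. With the 0 h libraries (replicates 1 and 3), 12 h replicate 1 correlated at 0.830 and 0.822 and 12 h replicate 3 at 0.815 and 0.778. By this measure 12 h replicate 1 was closer to both 0 h libraries than to the other 12 h library. Sequence and family levels were scaled in separate fits, so a sequence's CPM cannot be set beside that of its family.

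After 12 h of heat 15 of 459 sequences passed the test (3.27% of those tested, adjusted p under 0.05, edgeR's quasi-likelihood test with Benjamini-Hochberg adjustment), of which 2 rose (0.436%) and 13 fell (2.83%). Of the families, 4 of 124 passed (3.23%): miR396 rose (0.806%), and miR1850, miR5073 and miR2606 fell (2.42%). At an unadjusted p under 0.05 there were 13 rises and 48 falls among sequences (2.83% and 10.5%) and 3 rises and 13 falls among families (2.42% and 10.5%). The sequences that passed were not among the abundant ones: the highest of them stood at rank 39 by mean level. Both 12 h libraries lay below both 0 h libraries for all 13 falls, and above them for 1 of the 2 rises. Of the falls, 10 had at most 3 reads in 12 h replicate 3, and 4 had none there. No sequence passed without 12 h replicate 1, 9 passed without 12 h replicate 3 (4 up, 5 down), 3 without 0 h replicate 1 and 2 without 0 h replicate 3, each time with the lone library taken to vary like the other groups. Of the 15, those that passed without 12 h replicate 3 were both rises, gma-MIR6300-p3_1ss8AG, mtr-MIR2606c-p3_2ss8TG18GA and osa-miR5073_R+1_1ss20AT. The last 3 also passed without 0 h replicate 1, and osa-MIR1850-p5_1ss18CT and osa-miR528-3p were those that passed without 0 h replicate 3. Among families the counts were 0, 13, 2 and 2 for the same libraries. Other scalings gave 3 rises and 6 falls (upper quartile) or 1 rise and 3 falls (totals without the 3 most abundant sequences) among sequences, and no rise with 3 falls among families under relative log expression, upper quartile or the authors' constants. The median log2 change of all sequences was −0.03, and it moved to 0.21 with upper-quartile scaling, 0.22 with totals without the 3 most abundant and −0.21 with the authors' constants.

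**Figure D1:**
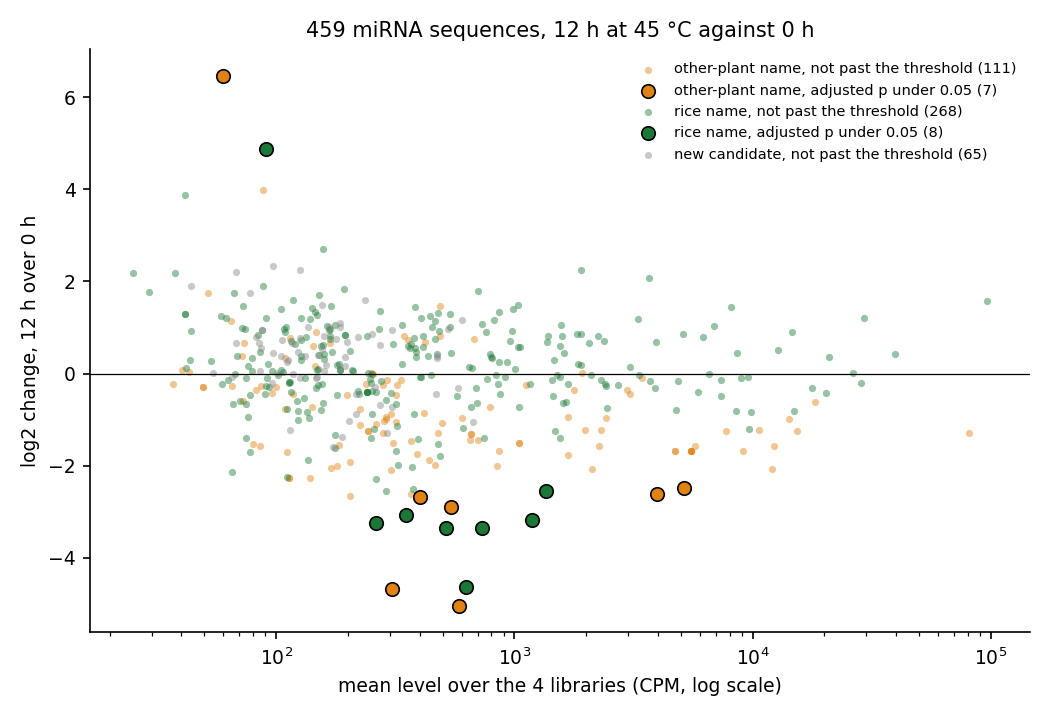
Log2 change at 12 h over 0 h of the 459 tested sequences against their mean level over the 4 libraries (CPM, log scale), coloured by the origin of the name; outlined points passed an adjusted p of 0.05. The 2 rises lie at the low end of the levels, and the 13 falls lie below the abundant sequences, which spread on both sides of 0.

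miR396 was the abundant family that rose. It guides the cleavage of transcripts of growth-regulating factors (GRFs), which promote leaf cell division. Its 10 sequences took 25.8 and 11.7% of the listed reads in the 12 h libraries, against 6.11 and 7.06% in the 0 h libraries. As family levels these were 210280 and 98388 CPM at 12 h (154334 ± 79119, SD, n = 2) and 57416 and 67849 CPM at 0 h (62632 ± 7378). Both 12 h libraries were above both 0 h libraries, as for 22.6% of all tested families, and replicate 1 was well above replicate 3. The log2 change was 1.30 ± 0.32 (SE; adjusted p = 0.0155, edgeR), against 3.23 ± 0.34 at 24 h over the same 0 h libraries. The call was the least stable of the 4 families that passed: it held under 5 of 13 other settings (adjusted p 0.00600 to 0.411, log2 change 1.21 to 1.74). It was lost without 12 h replicate 1 (log2 change 0.65, adjusted p = 0.347), without 0 h replicate 1 (1.19, 0.202) and without 0 h replicate 3 (1.61, 0.563), and kept without 12 h replicate 3 (1.87, adjusted p = 0.00930).

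Within the family the guide strand osa-miR396e-5p was the most abundant sequence of both 12 h libraries, with 32806 and 1020 reads (22.3 and 9.88% of the listed reads), against 1468 and 6094 reads at 0 h (4.36 and 5.94%). Its level was 222143 and 66337 CPM at 12 h and 38369 and 58304 CPM at 0 h. The groups did not overlap, but the sequence did not pass the test (log2 change 1.58 ± 0.85, adjusted p = 0.407). osa-miR396c-5p, with the other seed, had 29435 and 8650 CPM at 12 h and 12101 and 8381 CPM at 0 h, where replicate 3 at 12 h lay between the 0 h libraries (0.90 ± 0.74, adjusted p = 0.640). Of the 10 members, 5 had both 12 h libraries above both 0 h libraries and none below, beside 17.2% and 24.4% of all tested sequences.

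The 1 member of miR396 that passed was osa-miR396d, which had 52 and 0 reads at 12 h and 0 and 1 read at 0 h once rounded (the values of 0 stand for a deposited 0.5). Its reads at 12 h came almost wholly from replicate 1, so the groups overlapped. The reads pooled over each group, scaled to the library sizes, gave a ratio of 45.5 (exact 95% interval 7.82 to 1833, counting error only). This ratio rests on 1 rounded read at 0 h, and against 3 reads over the 0 h group it was 15.2. In the fit the log2 change was 4.87 ± 1.23 (adjusted p = 0.00653). Without 12 h replicate 1 its sign turned, at −2.52 (adjusted p = 0.896). The call was also lost without 0 h replicate 1 (4.44, 0.159) or 0 h replicate 3 (7.45, 0.406), and with values rounded down (adjusted p = 0.0527), in DESeq2 (0.0591) and with the replicate number as a block (0.109). The far more abundant osa-miR396e-5p differs from it only by T20G. Of the reads of both together osa-miR396d made up 0.158% in 12 h replicate 1 (exact 95% interval 0.118 to 0.207%), 0% of 1020 reads in 12 h replicate 3 (up to 0.361%), 0% of 1468 reads in 0 h replicate 1 (up to 0.251%) and 0.0164% in 0 h replicate 3 (0.000415 to 0.0914%). The part of misread copies of osa-miR396e-5p in these reads was not tested.

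Neither rise passed with values rounded down or with the block. The second was in miR393, which acts on transcripts of the auxin receptors TIR1 and AFB. ghr-miR393_L+3R-1, the 5′-extended form, had 16 and 2 reads at 12 h and 0 and 0 at 0 h. It passed the test of the fitted change (adjusted p = 0.0290, edgeR), for which no fold can be given, as the 0 h group had no read. Taken against 3 reads over the 0 h group, its level was 5.25-fold higher at 12 h, a ratio that was not itself tested. The exact 95% interval of the pooled ratio began at 3.85, for counting error only. osa-miR393a, the 21 nt sequence inside it, had 1404 and 36 reads at 12 h (9507 and 2341 CPM) and 34 and 203 at 0 h (889 and 1942 CPM). The groups of osa-miR393a did not overlap, though replicate 3 at 12 h was only a little above the higher 0 h library, and it did not pass (log2 change 2.07 ± 0.74, adjusted p = 0.105). The extended form lost its call without 12 h replicate 1, 0 h replicate 1 or 0 h replicate 3, with adjusted p up to 0.743.

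**Figure D2:**
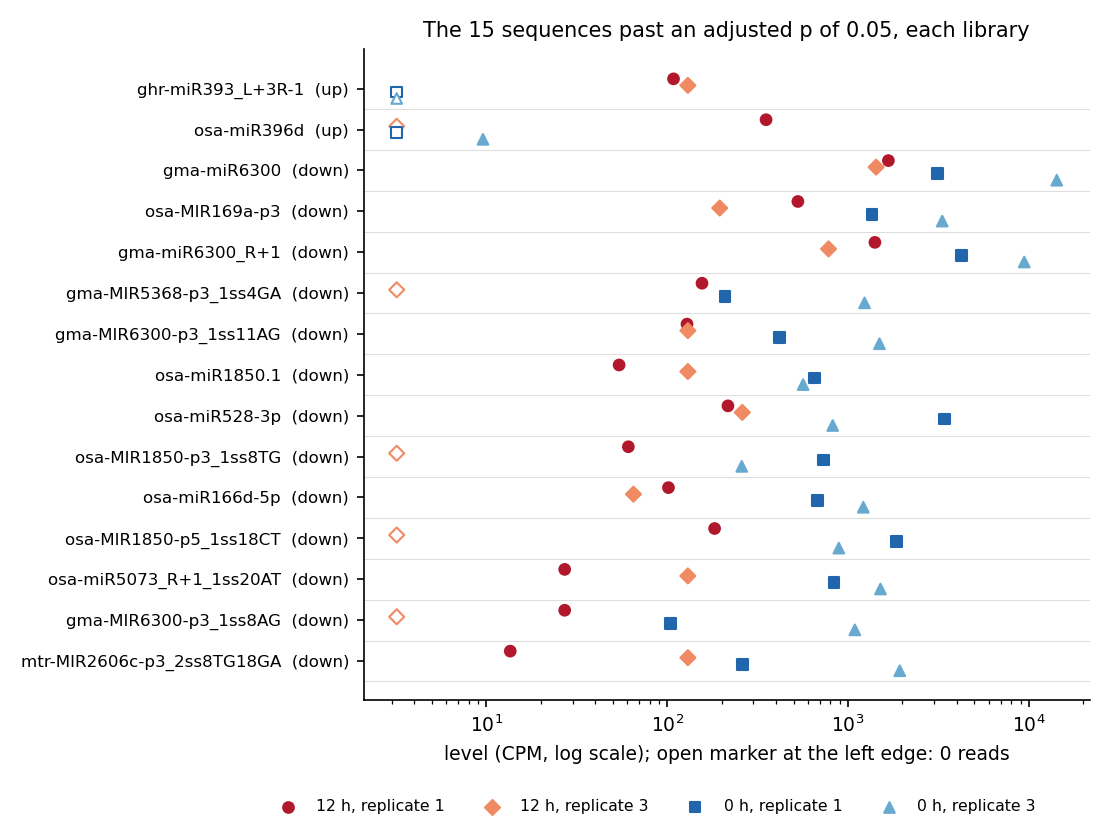
Level in each library (CPM, log scale) of the 15 sequences that passed an adjusted p of 0.05, 12 h libraries as circles and diamonds and 0 h libraries as squares and triangles; an open marker at the left edge stands for 0 reads. The 12 h markers lie left of the 0 h markers in all 13 falls, and osa-miR396d has 52 reads in 12 h replicate 1.

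miR1850 fell with all 3 of its listed sequences. osa-MIR1850-p5_1ss18CT had 27 and 0 reads at 12 h and 71 and 93 at 0 h (log2 change −3.35 ± 0.84, adjusted p = 0.00653). osa-MIR1850-p3_1ss8TG had 9 and 0 reads at 12 h, against 28 and 27 at 0 h (−3.24 ± 0.96, adjusted p = 0.0321). For osa-miR1850.1 there were 8 and 2 reads at 12 h and 25 and 59 at 0 h (−3.08 ± 0.95, adjusted p = 0.0392). All 3 had fewer reads in 12 h replicate 1 than in either 0 h library, although that library held the most listed reads of the 4. Without 0 h replicate 1 the changes of the first 2 were −2.76 and −2.34, and without 12 h replicate 1 that of osa-miR1850.1 was −2.28, while the first 2 then had no read at 12 h and no fold can be given. Summed, the family had 44 and 2 reads at 12 h and 124 and 179 at 0 h, with levels of 203 ± 57.4 CPM and 2571 ± 1263 CPM (SD, n = 2). Its log2 change was −3.54 ± 0.82 (adjusted p = 0.0155), against −2.74 ± 0.75 at 24 h. The family passed under all 12 other settings that could be fitted, and lost its call without 0 h replicate 1 (−2.93, adjusted p = 0.149) or without 12 h replicate 1 (−3.96, adjusted p = 0.118).

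miR5073 and miR2606 are each represented by 1 sequence. osa-miR5073_R+1_1ss20AT had 4 and 2 reads at 12 h and 32 and 158 at 0 h, that is 27.1 and 130 CPM against 836 and 1512 CPM. The log2 change was −4.64 ± 1.01 (adjusted p = 0.00104) as a sequence and −4.81 ± 0.97 (adjusted p = 0.00801) as a family. As a sequence it lost its call without 12 h replicate 1 (−3.22, adjusted p = 0.263) or 0 h replicate 3 (−4.13, 0.0678). It was the family whose call failed only without 12 h replicate 1 (log2 change −2.87, adjusted p = 0.185). mtr-MIR2606c-p3_2ss8TG18GA, named after a Medicago entry, had 2 and 2 reads at 12 h and 10 and 202 at 0 h. Most of its 0 h reads came from replicate 3. The log2 change was −5.04 ± 1.06 (adjusted p = 0.00102) as a sequence and −5.20 ± 1.25 (adjusted p = 0.0155) as a family, which lost its call without 0 h replicate 3 (−2.96, adjusted p = 0.586), without 12 h replicate 1 (−2.78, adjusted p = 0.185) and in the robust fit (adjusted p = 0.0782). As a sequence it lost its call without 0 h replicate 3 (−2.99, adjusted p = 0.616) or 12 h replicate 1 (−3.11, 0.275).

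Also among the falls of rice names were 3 strands from precursors of conserved guides that are not the guides themselves. osa-miR528-3p, opposite the guide that targets copper protein transcripts, had 32 and 4 reads at 12 h and 131 and 86 at 0 h (238 ± 30.7 CPM against 2123 ± 1839 CPM, SD, n = 2). It fell by a log2 change of −3.18 ± 0.81 (adjusted p = 0.00653), which was −1.82 without 0 h replicate 1 (adjusted p = 0.529), the library with most of its reads, and the call was lost without either 12 h library as well. The guide osa-miR528-5p had 6534 and 15284 CPM at 12 h and 16728 and 21335 CPM at 0 h, lower in both 12 h libraries but not past the test (−0.81 ± 0.72, adjusted p = 0.662). osa-miR166d-5p, opposite the guide for HD-ZIP III transcripts, which set leaf polarity, had 15 and 1 reads at 12 h and 26 and 127 at 0 h (−3.35 ± 0.89, adjusted p = 0.0106). osa-MIR169a-p3, from the precursor of a guide for NF-YA transcripts, had 78 and 3 reads at 12 h and 52 and 347 at 0 h (−2.55 ± 0.76, adjusted p = 0.0321), and its change was −1.77 without 0 h replicate 3 (adjusted p = 0.810). Both of these last strands lost their call without any 1 of the 4 libraries of 12 h and 0 h.

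By arm, the 8 sequences of the miR166 5p arm held 1100 and 650 CPM at 12 h and 2405 and 3605 CPM at 0 h. They were 2.58 and 2.68% of the reads assigned to either arm of the family at 12 h, against 7.55 and 8.55% at 0 h. The groups did not overlap, but the 2.68% in 12 h replicate 3 rests on 10 reads of the 5p arm. The called strand osa-miR166d-5p is among the 8 sequences. Arm shares without overlap were also found in other families, such as miR1429, miR1430 and miR2871. The part of all families with such shares is not given here. The miR528 3p strand was 3.21 and 1.67% of that family's arm reads at 12 h and 17.0 and 3.71% at 0 h. In miR397, which targets laccases, the 5p arm held 88.6 and 68.3% at 12 h and 57.0 and 52.5% at 0 h. In miR168, which targets AGO1, the 5p arm held 81.6 and 30.6% at 12 h and 28.7 and 46.2% at 0 h, so the 12 h libraries lay on both sides of those of 0 h. Over all listed reads the 5p arm took 66.7 and 51.2% at 12 h and 52.3 and 54.0% at 0 h, and the 3p arm 25.4 and 41.0% and 36.8 and 33.3%. Of 203 tested 5p sequences 1 rose and 4 fell (median log2 change 0.02), and of 236 on the 3p arm none rose and 7 fell (median −0.08). These shares have no test, and among reads assigned to either arm in a family they do not depend on the scaling between libraries.

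The remaining falls carried soybean names. gma-miR6300 had 247 and 22 reads at 12 h (1673 and 1431 CPM) and 120 and 1492 at 0 h (3136 and 14275 CPM), a log2 change of −2.48 ± 0.75 (adjusted p = 0.0338). gma-miR6300_R+1, 1 base longer, had 1408 and 780 CPM at 12 h and 4234 and 9434 CPM at 0 h, a log2 change of −2.60 ± 0.76 (adjusted p = 0.0298). These were the only 2 of the 15 with at least 10 reads in all 4 libraries, and with the filter set to such sequences (127 tested) neither passed. gma-MIR6300-p3_1ss11AG had 129 and 130 CPM at 12 h and 418 and 1493 CPM at 0 h (−2.90 ± 0.86, adjusted p = 0.0321), gma-MIR6300-p3_1ss8AG had 4 and 0 reads against 4 and 114 (−4.68 ± 1.05, adjusted p = 0.00135), and gma-MIR5368-p3_1ss4GA had 23 and 0 reads against 8 and 129 (−2.69 ± 0.84, adjusted p = 0.0427). For all 3, 0 h replicate 3 held most of the reads. Without that library none of the 5 passed, and the log2 changes were −1.01 for gma-miR6300 (adjusted p = 0.949), −1.92 for gma-miR6300_R+1 (0.743), −1.69 for gma-MIR6300-p3_1ss11AG (0.888), −2.11 for gma-MIR6300-p3_1ss8AG (0.888) and −0.88 for gma-MIR5368-p3_1ss4GA (0.991). The last of these passed in 6 of 12 other settings.

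All 17 tested sequences of the miR6300 family had both 12 h libraries below both 0 h libraries, beside 24.4% of all sequences, and their median log2 change was −1.68. They are not 17 separate measurements. The values of 24 listed sequences, in 10 sets and mostly with names ending in _1, _2 and so on, were the same in all 6 libraries although the bases differ, and 10 of these belong to miR6300. The family took 2.23 and 6.76% of the listed reads at 12 h and 9.77 and 13.8% at 0 h, or 1.52 and 4.60% and 6.68 and 10.2% with each set of same-valued sequences kept once. Its family test did not pass (log2 change −1.59 ± 0.50, adjusted p = 0.0913), though it passed with the 4 libraries alone (adjusted p = 0.0246), with the replicate number as a block (0.0414) and without 12 h replicate 3 (0.0227) or either 24 h library. With each set kept once it did not pass either (adjusted p = 0.123). ppt-miR894_R+1, the most abundant sequence of both 0 h libraries, had 53819 and 40323 CPM at 12 h and 127417 and 102228 CPM at 0 h. The groups did not overlap, and the sequence did not pass (−1.29 ± 0.78, adjusted p = 0.438). The same was true of cpa-miR8155_L-1, with 78 and 18 reads at 12 h and 148 and 304 at 0 h (−2.06 ± 0.77, adjusted p = 0.128), and of ath-miR8175_L+3_1ss5AT, with 248 and 109 reads at 12 h and 519 and 1481 at 0 h (−1.69 ± 0.73, adjusted p = 0.220).

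Mature transfer RNAs end in the bases CCA, and the listed sequences include 30 with that end, 20 of them with other-plant names and 9 with rice names such as the miR160 guide. Sequences ending in CCA took 9.81 and 10.3% of the listed reads at 12 h and 21.4 and 17.9% at 0 h. None of the 30 passed, 9 reached an unadjusted p under 0.05 downwards, and their median log2 change was −0.96. A list of 6 names whose sequences may come from other RNA classes (miR894, miR5139, miR8155, miR8175, miR6300 and miR5368) held 31 tested sequences. None rose and 5 fell, beside 0.436% and 2.83% of all tested sequences. In 26 both 12 h libraries were below those of 0 h and in none above, beside 24.4% and 17.2%. The 26 include all 17 sequences of miR6300, of which 10 share their values with another, and 4 of the 5 falls are of miR6300. They are therefore not 26 separate measurements. The list took 10.4 and 15.5% of the listed reads at 12 h and 29.6 and 29.5% at 0 h. In the authors' table of read classes, with 1 value per time point, transfer RNA was 0.769% of all reads at 12 h and 1.46% at 0 h, and ribosomal RNA 3.01% and 5.13%. Small nuclear RNA was higher at 12 h (0.181%) than at 0 h (0.0520%), and the reads left as valid were 45.0% at 12 h and 32.1% at 0 h. At 12 h the reads removed by the length filter (57.2%) and the valid reads together come to more than all reads. The 12 h and 0 h percentages may therefore not share a basis, and their differences are uncertain. The part of such fragments in the falls was not tested. None of the 15 called sequences ends in CCA. With such sequences left out of the fit all 15 still passed, but the miR396 family did not (adjusted p = 0.178).

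By origin of the name, rice names took 81.6 and 73.6% of the listed reads at 12 h and 55.8 and 56.1% at 0 h (77.6 ± 5.61% and 56.0 ± 0.177%, SD, n = 2). Other-plant names took 16.9 and 24.4% at 12 h and 42.7 and 42.6% at 0 h. The groups did not overlap in either class, and with miR396 left out the shares of other-plant names were 22.7 and 27.6% at 12 h and 45.5 and 45.8% at 0 h. Of 118 tested other-plant sequences 1 rose and 6 fell, with a median log2 change of −1.04. Of 276 rice sequences 1 rose and 7 fell, with a median of 0.12, and of 65 new candidates none passed, with a median of 0.38. Both 12 h libraries lay below both 0 h libraries for 59 of the 118 other-plant sequences and for 46 of the 276 rice sequences, beside 24.4% of all tested sequences. They lay above for 8 and 55 of these, beside 17.2%. The 59 include all 17 sequences of miR6300, of which 10 share their values with another, so they are not 59 separate measurements.

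By length, 21 nt sequences took 73.9 and 53.6% of the listed reads at 12 h and 55.0 and 53.8% at 0 h, so the difference stood in replicate 1 alone, and without miR396 the 12 h shares were 65.0 and 47.5%, on both sides of the 0 h shares of 52.1 and 50.3%. The 24 nt class took 8.52 and 21.1% at 12 h and 13.4 and 8.51% at 0 h, so the 12 h libraries lay on both sides of that of 0 h replicate 1. As levels of single sequences, both 12 h libraries were above both 0 h libraries for 46 of 131 tested 24 nt sequences and below for 11, where all sequences gave 17.2% and 24.4%. Of these 24 nt sequences 1 rose and 1 fell past the test, and the median log2 change was 0.45. Among 23 nt sequences, 1 of 26 fell, 14 were below and 1 above in both libraries, and the median was −1.36. The 14 include 4 sequences of miR6300 (gma-miR6300_R+5_1 to gma-miR6300_R+5_4) that share their values.

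**Figure D3:**
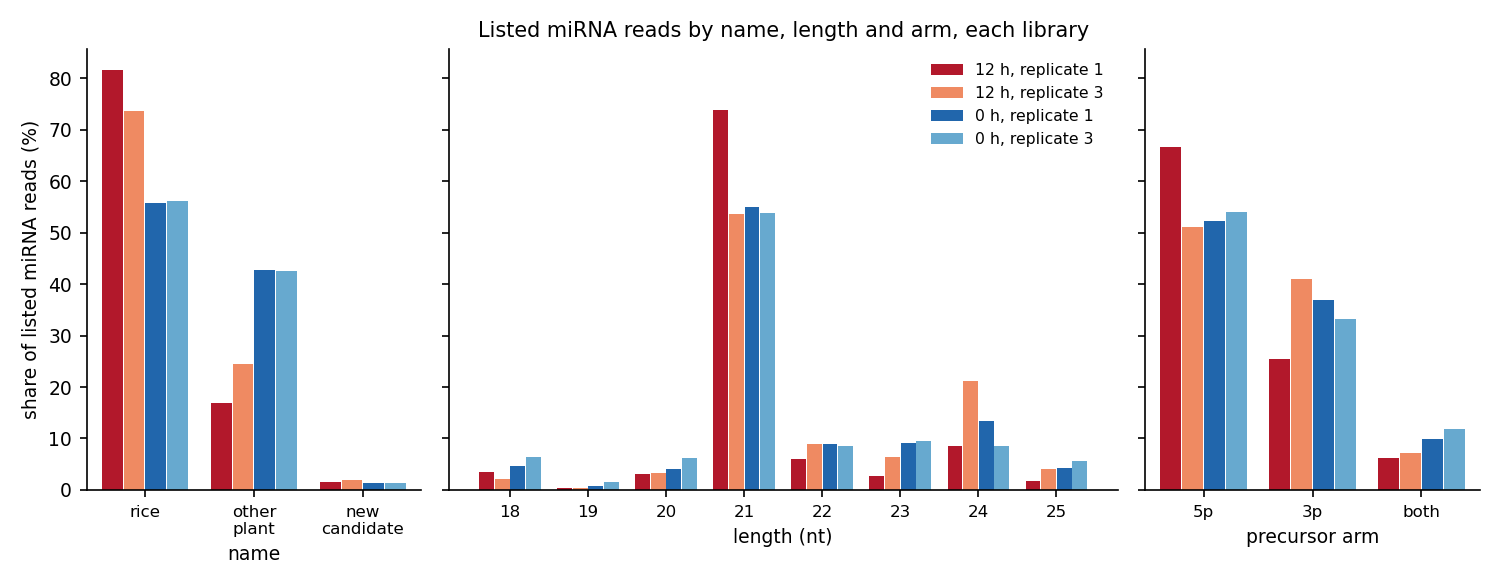
Share of the listed miRNA reads (%) by name, length and precursor arm in each library, 12 h bars left of 0 h bars. Other-plant names take a smaller share in both 12 h libraries than in both 0 h libraries, whereas the 21 nt, 24 nt, 5p and 3p shares of the 12 h libraries differ from each other as much as from those of 0 h.

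Several 24 nt sequences were close between the 12 h libraries. osa-miR1862d had 9731 and 8715 CPM at 12 h and 4286 and 4803 CPM at 0 h (log2 change 1.02 ± 0.72, adjusted p = 0.524). osa-MIR820b-p3, from a transposon-derived family whose guide acts on the DNA methyltransferase gene DRM2 in rice, had 1354 and 1691 CPM at 12 h and 653 and 440 CPM at 0 h (1.48 ± 0.74, adjusted p = 0.352). osa-miR5150-5p had 880 and 1301 CPM at 12 h and 314 and 306 CPM at 0 h (1.78 ± 0.75, adjusted p = 0.220). The groups did not overlap in any of these, and none passed. sbi-miR821a_L+2R+1_2ss15TA16AC (1.47 ± 0.79, adjusted p = 0.407) and osa-MIR5824-p5_1ss20TC (1.29 ± 0.77, adjusted p = 0.438) likewise did not overlap and did not pass.

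**Figure D4:**
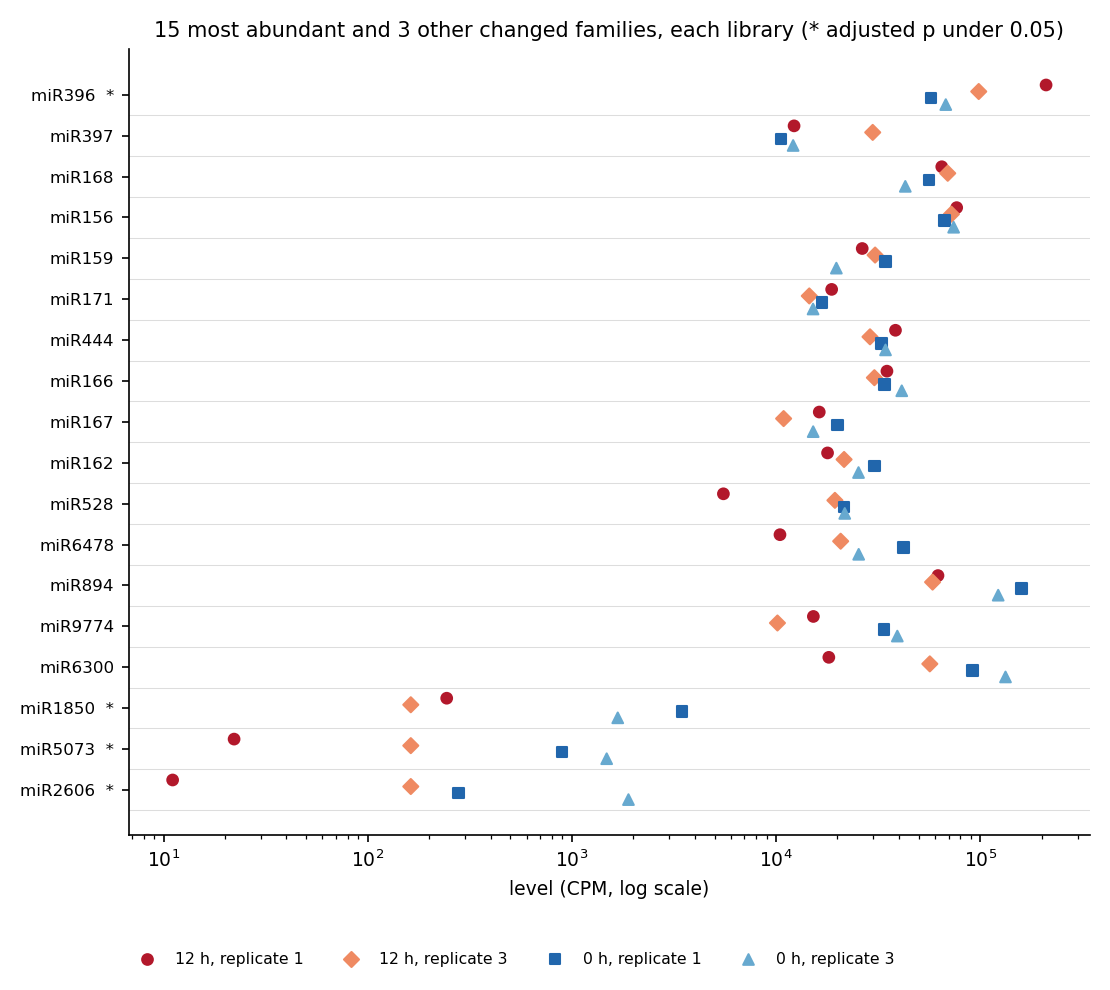
Level in each library (CPM, log scale) of the 15 most abundant families and the 3 other families that passed, marked with an asterisk where the adjusted p was under 0.05. The 12 h markers lie right of the 0 h markers for miR396, miR168 and miR397. They lie left of them for miR894, miR6300, miR9774 and miR162, among others, and the 4 markers lie close together for miR156, miR171, miR444 and miR166.

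Among the 15 most abundant families, miR396 was the only one to pass. miR894 was lower in both 12 h libraries (62142 and 58464 CPM) than in both 0 h libraries (159171 and 122545 CPM), with a log2 change of −1.22 ± 0.48 (adjusted p = 0.300). miR9774 was lower as well, at 15240 and 10164 CPM at 12 h and 33751 and 39283 CPM at 0 h (−1.52 ± 0.62, adjusted p = 0.300), and so was miR6478 (−1.12 ± 0.58, adjusted p = 0.409). Of all tested families, 25.0% lay below both 0 h libraries in both 12 h libraries and 22.6% lay above. miR156, which targets SPL genes of the juvenile-to-adult transition, held 76723 and 72287 CPM at 12 h and 66664 and 74140 CPM at 0 h. miR168 held 64852 and 69360 CPM at 12 h and 56074 and 42986 CPM at 0 h, without overlap but with a change below its SE. miR166 held 34942 and 30330 CPM at 12 h, against 34030 and 41298 CPM at 0 h, miR444, which targets MADS-box transcripts, 38473 and 28866 CPM against 32913 and 34389 CPM, and miR171, which targets GRAS genes, 18732 and 14555 CPM against 16792 and 15188 CPM. For miR156, miR166, miR444 and miR171 the 12 h and 0 h values overlapped, and none of these 5 families passed.

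The counts of the lists that follow stand beside 0.436% rises and 2.83% falls among all tested sequences. In the list of phase transition families (miR156, miR172, miR529, miR535) none of 28 tested sequences passed, and the median log2 change was −0.18. The most abundant, osa-miR156a_L+1, had 65825 and 24519 CPM at 12 h and 29482 and 37792 CPM at 0 h. osa-miR172a, which targets AP2-like genes of flowering and floret development, stood out by size. It had 729 and 20 reads at 12 h (4936 and 1301 CPM) and 28 and 65 at 0 h (732 and 622 CPM), without overlap. The log2 change was 2.24 ± 0.75 (adjusted p = 0.0817), and it passed in 3 of the other fits. osa-MIR529a-p5 had 63 and 38 reads at 12 h and 20 and 54 at 0 h, where only 12 h replicate 3 was above the 0 h levels (1.39 ± 0.76, adjusted p = 0.411), and without that library its sign turned, at −0.28. osa-miR535-5p had 4747 and 7609 CPM at 12 h and 7475 and 14102 CPM at 0 h (−0.81 ± 0.72, adjusted p = 0.662).

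In the auxin list (miR160, miR167, miR390, miR393) 1 of 23 sequences rose, the extended miR393 form, and none fell, beside 0.436% and 2.83% of all tested sequences. osa-miR160f-5p, of the family that targets ARF genes, had 4672 and 2276 CPM at 12 h and 4208 and 7922 CPM at 0 h (log2 change −0.79 ± 0.72, adjusted p = 0.667). osa-miR167d-5p_R+1 had 8139 and 4032 CPM at 12 h and 10246 and 6975 CPM at 0 h, and osa-miR390-5p had 1788 and 2211 CPM and 1411 and 2009 CPM. Neither changed by more than its SE.

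In the copper list (miR397, miR398, miR408, miR528), whose targets are copper proteins such as laccases, superoxide dismutases and plantacyanins, none of 10 sequences rose and 1 fell, osa-miR528-3p. osa-miR408-3p was unlike between the 12 h libraries, at 2323 and 11967 CPM, against 9226 and 15882 CPM at 0 h (−0.83 ± 0.72, adjusted p = 0.649). osa-MIR397b-p5 had 10117 and 13528 CPM at 12 h and 4391 and 4305 CPM at 0 h, without overlap (1.44 ± 0.72, adjusted p = 0.354). osa-miR398b had 589 and 780 CPM at 12 h and 497 and 708 CPM at 0 h, a change smaller than its SE. The list therefore had members on both sides, and its median log2 change was −0.82.

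The nutrient list (miR395, miR399, miR827, miR169, miR2111) held 18 sequences of miR169 and 1 of miR827, and the other 3 families had no listed sequence. None of the 19 rose and 1 fell, osa-MIR169a-p3, and none had 10 reads in all 4 libraries. osa-miR827, which acts on SPX-domain phosphate transporter genes, had 357 and 8 reads at 12 h and 70 and 150 at 0 h. osa-MIR169a-p5, from the same precursor as the called strand, had 191 and 6 reads at 12 h and 55 and 295 at 0 h (log2 change −1.26 ± 0.73, adjusted p = 0.432).

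In the leaf development list (miR159, miR164, miR166, miR171, miR319, miR396) 1 of 55 sequences rose and 1 fell, osa-miR396d and osa-miR166d-5p. The abundant guides other than miR396 changed by less than their SE: osa-miR159a.1 had 27905 and 18861 CPM at 12 h and 23262 and 13404 CPM at 0 h, osa-miR166a-3p 21635 and 9690 CPM against 16858 and 22426 CPM, osa-miR171b 11728 and 5463 CPM against 8442 and 10084 CPM, and osa-miR164a 3298 and 3642 CPM against 2823 and 5788 CPM. osa-miR319a-3p.2-3p_R+1, of the family that targets TCP genes, had 80 and 2 reads at 12 h and 44 and 64 at 0 h (−1.18 ± 0.76, adjusted p = 0.453). In the small RNA machinery list (miR162, which targets DCL1, and miR168) none of 7 sequences passed. osa-miR168a-5p had 64694 and 16975 CPM at 12 h and 15055 and 20254 CPM at 0 h (1.21 ± 0.75, adjusted p = 0.438), whereas the 3p strand osa-miR168a-3p had 14545 and 38502 CPM and 37402 and 23613 CPM. osa-miR162a had 19475 and 15284 CPM at 12 h and 24307 and 22484 CPM at 0 h.

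None of the 16 miR444 sequences passed, and osa-miR444f_1ss12CT had 35509 and 17170 CPM at 12 h and 24778 and 27612 CPM at 0 h. Of the 21 sequences in the list of rice or monocot families, none rose and 3 fell, all of them miR1850 (no miR1868 was listed). In 9 others, 7 of them miR1862, both 12 h libraries were above both 0 h libraries, beside 17.2% of all tested sequences, and the list's median log2 change was 0.51. osa-miR1432-5p_R+1 had 5810 and 3317 CPM at 12 h and 1255 and 2765 CPM at 0 h (1.18 ± 0.72, adjusted p = 0.438). osa-miR1425-5p, a guide for transcripts of pentatricopeptide repeat proteins, had 22386 and 7609 CPM at 12 h and 7580 and 13548 CPM at 0 h, a change below its SE. Of the triggers of panicle phased RNAs, 3 sequences of miR2118 were listed and none of miR2275. The most abundant, osa-MIR2118e-p5_2ss12TA18CT, had 184 and 6 reads at 12 h and 34 and 384 at 0 h (−1.40 ± 0.73, adjusted p = 0.375), and none passed.

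**Figure D5:**
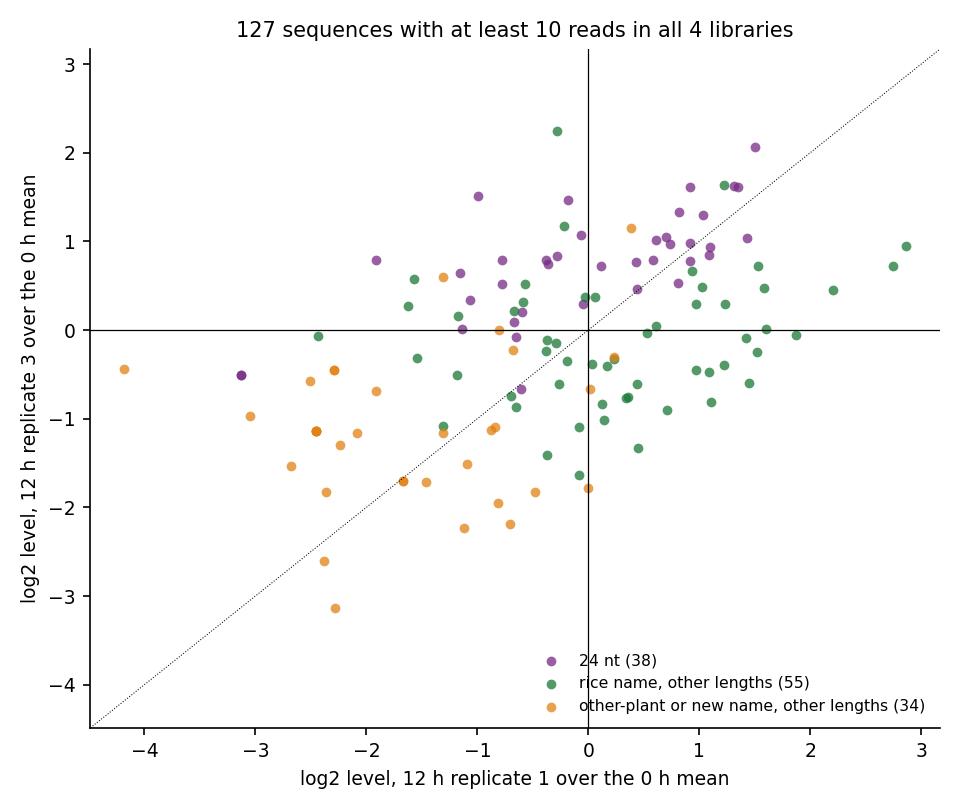
Log2 level of each 12 h library over the 0 h mean, replicate 1 on the horizontal and replicate 3 on the vertical axis, for the 127 sequences with at least 10 reads in all 4 libraries; the dotted line marks equal values. Both 12 h libraries are above the 0 h mean for 33 sequences and below it for 47, and they lie on opposite sides for 47.

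How far the 12 h libraries differed between themselves sets the scale for all of these values. Over the 128 sequences with at least 10 reads in both, the median absolute log2 difference between the 2 libraries was 0.94. The widest gaps were in gma-miR408a-3p_L-1R+3, with 67.7 and 911 CPM at 12 h and 810 and 1655 CPM at 0 h, and in osa-miR1423-3p_R+3_1ss8AG, with 887 and 5788 CPM and 4103 and 2574 CPM. osa-miR5150-3p_L-1R+1 had 132 and 78 reads at 12 h and 96 and 111 at 0 h, and the new candidate PC-3p-50578_87 had 149 and 715 CPM and 131 and 230 CPM. gma-miR6300_R+6_1 and gma-miR6300_R+6_2, which share their values, had 25 and 16 reads at 12 h and 60 and 145 at 0 h. In each of these the level was higher in 12 h replicate 3 than in 12 h replicate 1. Of the 127 sequences with at least 10 reads in all 4 libraries, 38 were of 24 nt, and 18 of these had both 12 h libraries above both 0 h libraries and 3 below, where all 127 gave 28 above and 34 below.

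The degradome, which counts the 5′ ends of cleaved polyadenylated transcripts at predicted target sites, had 1 library for each time, so its values have no replicate check and no test. The libraries held 11033581 raw reads at 12 h and 12554074 at 0 h. For each gene the site with the most reads is given, with an exact 95% interval of the ratio that covers counting error only. Ratios are taken relative to the raw reads of each library, so that equal reads at a site give a ratio of 1.14. At the GRF sites of miR396, 9 genes together had 10 reads at 12 h and 52 at 0 h, a ratio of 0.219 (0.0991 to 0.435), where 7 genes had fewer reads at 12 h and 1 had more. LOC_Os02g53690, annotated as growth-regulating factor 5, had 0 reads at 12 h and 18 at 0 h, and LOC_Os06g02560, with the same annotation, had 0 and 11. The miR396 level was higher at 12 h while these sites had fewer reads, and the level of the uncut transcripts was not measured here. The share of all genes with fewer reads at 12 h is not given here, so the 7 of 9 GRF genes have no background. Summed over genes, the sites of miR160 (518 and 1629 reads) and miR166 (69 and 213) also had fewer reads at 12 h than at 0 h. Those of miR169 (741 and 486) and miR444 (140 and 98) had more.

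Other named guides had well-covered sites. At LOC_Os07g38290, a cupredoxin gene, the osa-miR528-5p site had 18 reads at 12 h and 505 at 0 h, a ratio of 0.0406 (0.0238 to 0.0648). At LOC_Os08g37670, another cupredoxin gene, the osa-miR408-3p site had 158 and 1032 reads, a ratio of 0.174 (0.146 to 0.206). The osa-miR160a-5p site of LOC_Os06g47150, annotated as auxin response factor 16, had 321 and 892 reads, a ratio of 0.409 (0.359 to 0.466), and the miR166 site of the homeobox-leucine zipper gene LOC_Os10g33960 had 31 and 90 (0.392, 0.252 to 0.595). Sites with more reads at 12 h were also found. The osa-miR398b site of LOC_Os07g46990, a copper/zinc superoxide dismutase gene, had 47 reads at 12 h and 29 at 0 h (1.84, 1.14 to 3.04), and the miR169 site of LOC_Os03g48970, a nuclear factor Y subunit A gene, had 283 and 217 (1.48, 1.24 to 1.78). The osa-miR172a site of LOC_Os05g03040, annotated as related to AP2.7, had 37 and 35 reads, and the osa-miR393a site of LOC_Os04g32460, an auxin signaling F-box gene, had 10 and 6, with intervals that include equal rates. For the families that fell, the best covered sites had 4 reads at 12 h and 1 at 0 h for miR1850 and 10 and 2 for miR2606, and none was listed for miR5073. Summed over genes, miR1850 had 6 and 1 reads (2 genes) and miR2606 had 11 and 9 (5 genes). The intervals of both sums (0.828 to 314 and 0.524 to 3.80) include equal rates.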

How the data were processed

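Members and lists were chosen with earlier results of these data known. Raw reads per mature sequence were deposited by the authors as estimated counts, of which 66.9 to 75.2% per library are whole, and were rounded here. How the fractions arose is unknown. The authors' normalized signal is the raw value times a constant per library, and was used as an alternative only. Read classes are labelled by the authors as percent of all reads, which the 12 h values exceed when added. Category scores and read counts at degradome sites are as deposited. The p-value the authors deposited per miRNA (analysis of variance over 3 time points) was not used for calls. No source used here names the mapper, database release or genome build.

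Sequences and family sums were tested with edgeR 4.0.16 (R 4.3.3, TMM, quasi-likelihood test, 2-sided) over all 6 libraries with time as the factor, and contrasted 12 h with 0 h. The fit was planned for whole counts. SE is the log2 change over the square root of F. The spread of the sequence fit is shared over sequences (common dispersion 0.219, prior degrees of freedom infinite), so SE and p do not rest on each sequence's own libraries. On simulated data the fit recovered 20 of 20 sequences changed by a log2 size of 4 and 5 of 20 changed by 2, with no false call. Families recovered were 6 of 6 and 3 of 6, with 1 false call. In both simulations the changed items were drawn only from those with higher mean reads, and the same spread was set for all. Recovery at few reads, where many of the calls lie, was therefore not covered. Intervals cover counting error only, as reads had no molecular identifiers.

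Named items were those past the threshold, the 15 most abundant sequences and families, the most abundant sequence of each listed family, the 8 largest rises and falls without overlap among sequences with 10 reads in all 4 libraries, and the 8 with the widest gap between the 12 h libraries. A log2 change is given where it exceeds its SE. Alternatives covered scaling, filter, rounding, DESeq2 1.42.0, the replicate block, and each library left out. Tables and figures were made with pandas 2.3.3 and matplotlib 3.10.9 in Python 3.11.15.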

Additional observations from a re-analysis of the deposited data

How the results depend on the processing

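The count of 15 changed sequences became 9 with upper-quartile scaling, 4 with totals without the 3 most abundant, 6 with values rounded down, and 0 of 127 with at least 10 reads in all 4 libraries (edgeR, 25 at an unadjusted p under 0.05), a filter that only 2 of the 15 pass. It was 14 under relative log expression, 18 with the 4 libraries alone, 13 in DESeq2, which gives no adjusted p for some and 15 under the authors' constants, no filter, the robust fit, no CCA ends and, added after seeing the data, same-valued sequences kept once. The 4 families became 2 in the robust fit and 0 of 66 with at least 10 reads in all 4 libraries (edgeR, 7 at an unadjusted p under 0.05), and were between 3 and 6 otherwise. Leaving out each library in turn gave 0 to 15 sequences and 0 to 13 families. With the replicate number as a block, 7 sequences and 5 families passed, all 7 and 4 of the 5 among those reported. Same-numbered deviations correlated at −0.14 (12 h with 0 h), 0.17 (24 h with 0 h) and −0.26 (24 h with 12 h) over 388 sequences. No pairing by number was seen in these values, though so few libraries cannot exclude it. Leaving out 1 library turned the sign of 5 of the 58 named changes: osa-miR396d ranged from −2.52 to 7.45, osa-miR168a-5p from −0.11 to 1.87, osa-miR396c-5p from −0.33 to 1.52, osa-MIR529a-p5 from −0.28 to 2.18 and PC-3p-50578_87 from −0.33 to 1.88. The other 26 of the 84 named items changed by less than their SE and were given no direction. With 10314 reads in 12 h replicate 3, a level below 195 CPM there is under 3 reads.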
